A study of Homo sapiens with 4 samples.

Results

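The 10 genes examined here encode importers of the SLC39A or ZIP family, namely SLC39A1, SLC39A3, SLC39A4, SLC39A6, SLC39A7, SLC39A8, SLC39A9, SLC39A10, SLC39A13 and SLC39A14. They were taken by name from the 20046 protein-coding genes of GENCODE 44, and each was given a window of the gene plus 20 kb on either side on hg38. Every MTF-1 peak overlapping a window was examined, which gave 45 of 69299 peaks in control cells and 45 of 60130 peaks in cadmium-treated cells. MTF-1 had been profiled by CUT&RUN, in which an antibody tethers a nuclease to a DNA-binding protein so that the DNA around each bound site is cut out and sequenced. All 4 libraries came from MDA-MB-231, an established human breast cancer cell line, and were made with an antibody against MTF-1. The control group held 2 biological replicates without treatment, passaged in normal medium, and the cadmium group 2 replicates of a cadmium-resistant line selected by long passaging and kept in 10 µM cadmium. The replicates of each condition were merged by the authors before peaks were called, so that the data are 1 list of peak positions per condition, without heights or scores. The depth of the libraries is unknown from the lists and no spread between replicates could be measured, and no difference below was therefore tested. Peaks are built of bins of 200 bp, which makes a shift of an edge by 200 bp the smallest that can appear. In a peak list a site is present or absent, and a weak change near the threshold of the caller cannot be told apart from a strong one.

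ZIP proteins move zinc, and for some members iron, manganese or cadmium, into the cytoplasm from outside the cell or from internal stores. They act against the SLC30A or ZnT family, which moves zinc out of the cytoplasm. MTF-1 is the zinc-sensing transcription factor that binds metal response elements (MREs) and activates metallothionein genes, and in the mouse it is known to repress Slc39a10. ZIP8 and ZIP14, encoded by SLC39A8 and SLC39A14, are known carriers of cadmium into cells.

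All 10 importer genes had an MTF-1 peak within 1 kb of an annotated start site in control cells and in cadmium-treated cells. Of all protein-coding genes, 73.2% had such a peak in the control list, 71.5% in the cadmium list and 70.0% in both. The result was 10 of 10 also when the peak had to hold the start site itself, and when only the start of the MANE Select transcript, the representative transcript shared by Ensembl and RefSeq, was used. The 10 are not the whole family and were chosen with earlier results of these data known. Of the other 4 SLC39A genes, 1 had a start-site peak in both lists and 3 in neither. The peaks at the MANE Select starts differed in width between the lists for every importer but SLC39A9. Other peaks of the windows were present in 1 list only. In control cells, 5 of the 45 peaks had no overlap of even 1 base in the cadmium list and are called lost. This is 11.1%, against 27.9% of the whole control list. In cadmium-treated cells, 2 of the 45 peaks had no such overlap in the control list and are called gained. This is 4.44%, against 15.1% of the whole cadmium list. No interval is given for these shares, because neighboring peaks are not independent and the replicates were merged. The peaks of the windows also differ in kind from the whole lists. With overlapping peaks merged into sites, 24 of 38 shared sites were within 1 kb of a protein-coding start, against 15650 of 48627 genome-wide. Genome-wide, 10.1% of sites near such starts were lost and 4.59% gained, against 29.8% and 14.0% of the others. Control peaks of the windows were also wider, with a median of 2599 bp against 1399 bp. The counts of lost and gained peaks depend on the rule for overlap. When 50% of a peak had to be covered, 14 of 45 control peaks were lost (31.1%, whole list 46.2%) and 4 of 45 cadmium peaks gained (8.89%, whole list 21.5%). With peaks under 400 bp left out of the lists, 10 of 43 control peaks were lost (23.3%, whole list 33.3%) and 0 of 35 cadmium peaks gained (whole list 14.7%).

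The 5 lost peaks lay 1 each in the windows of SLC39A3, SLC39A4, SLC39A6, SLC39A13 and SLC39A14, and none of them overlapped the body of an importer gene. A lost peak was present in the windows of 5 of 10 importers and of 45.9% of all protein-coding genes. The 2 gained peaks lay in introns of SLC39A10 and SLC39A14, and a gained peak was present in 31.1% of all protein-coding windows. SLC39A1, SLC39A7, SLC39A8 and SLC39A9 had neither, 4 of 10 importers against 28.6% of protein-coding genes that had shared peaks only. Longer genes have longer windows. Of the genes over 25 kb, to which SLC39A8, SLC39A9, SLC39A10 and SLC39A14 belong, 56.7% had a lost and 36.4% a gained peak, and of the shorter genes 34.0% and 25.2%.

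**Figure D1:**
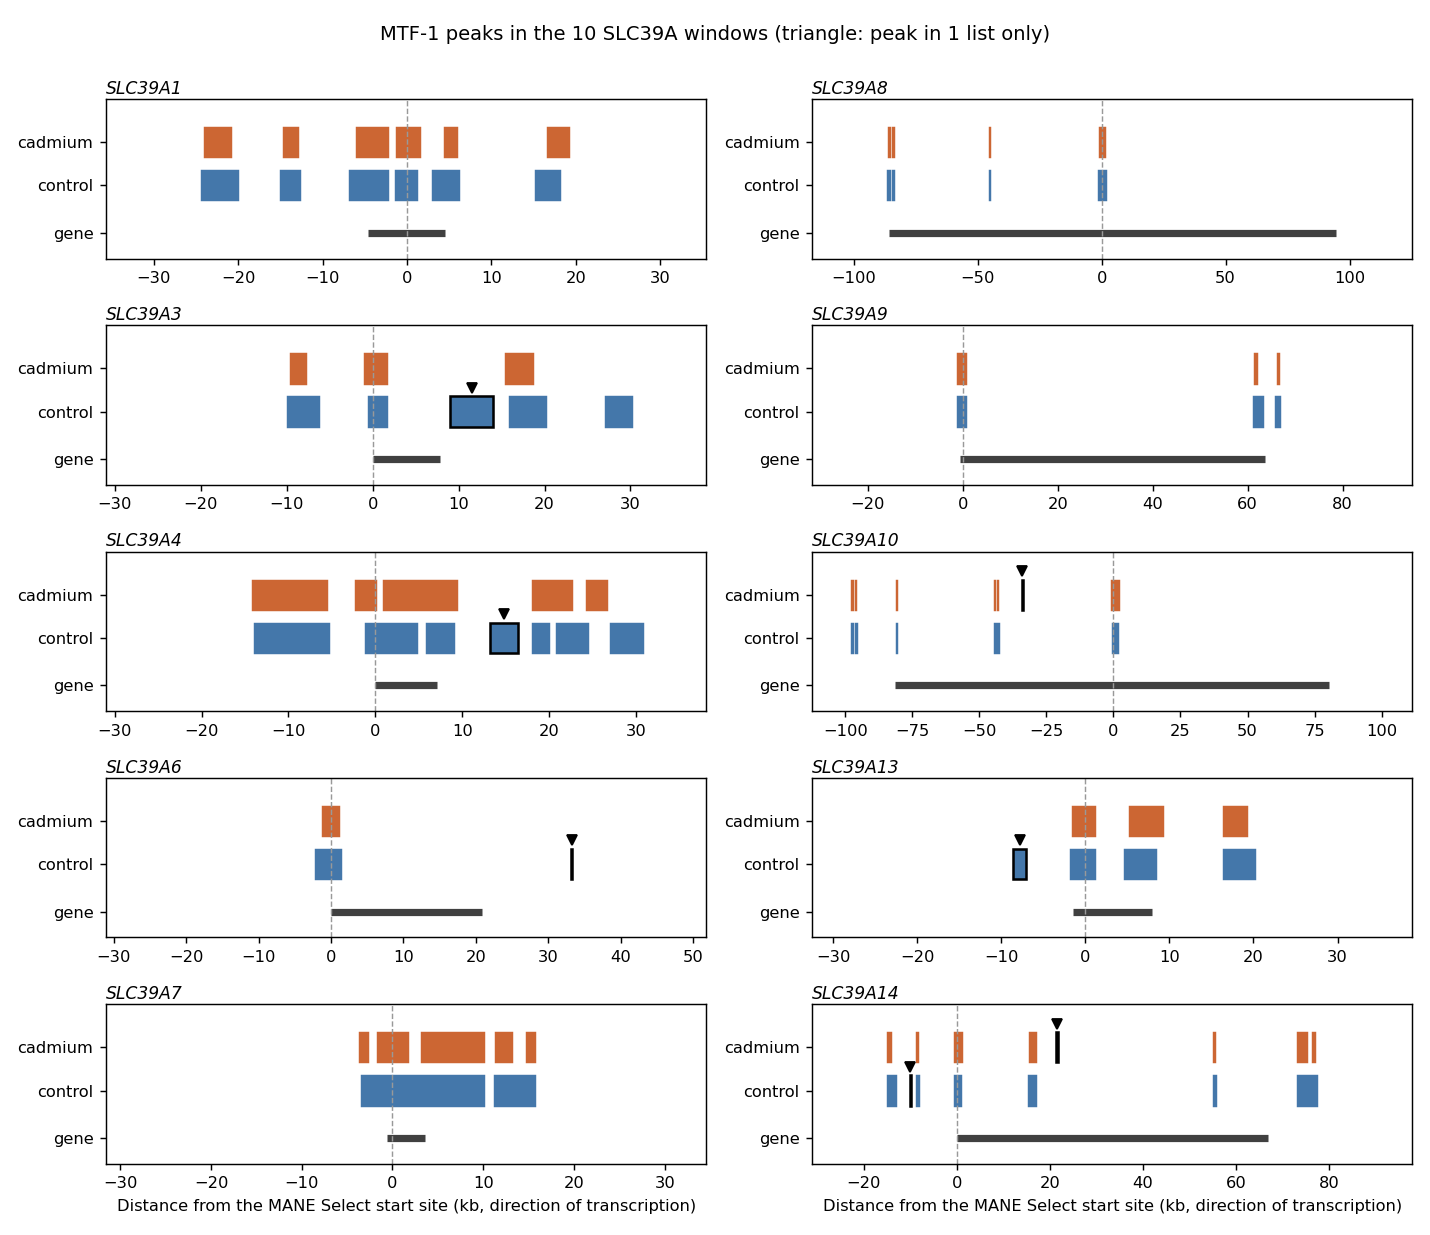
Each panel draws 1 window, with the distance from the MANE Select start site in kb along the direction of transcription on the horizontal axis, the gene as a dark bar and the peaks of the control list (blue) and the cadmium list (orange) as boxes to scale. A black outline and a triangle mark the 5 lost and 2 gained peaks, all of which are away from the dashed start sites, while every start site is covered in both rows.

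SLC39A8 occupies bases 102251080 to 102431258 of chromosome 4 (minus strand). The control list held 4 peaks in its window, with widths of 3199, 599, 799 and 1399 bp, and the cadmium list held 4 peaks at the same places, with widths of 2399, 399, 599 and 799 bp. Each cadmium peak was inside its control peak, and no peak was lost or gained. The widest covered the MANE Select start site at 102345482, from 1517 bp upstream to 1681 bp downstream in control cells and from 917 bp upstream to 1481 bp downstream in cadmium-treated cells. A second start far upstream, which SLC39A8 shares with the lncRNA gene ENSG00000248161, carried the shared peak of 1399 and 799 bp. The shared peak of 599 and 399 bp was intronic, 37700 bp from the closest SLC39A8 start when measured from its control centre. In all, the bases covered in the SLC39A8 window were 5996 bp in control and 4196 bp in cadmium-treated cells, a ratio of 0.70.

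SLC39A14 occupies bases 22367278 to 22434129 of chromosome 8 (plus strand). Its start-site peak began at the same position in both lists, 477 bp upstream, and extended 921 bp downstream in control cells and 1121 bp in cadmium-treated cells. The window held 7 control and 8 cadmium peaks. The lost peak was 1 bin of 199 bp from 22357201 to 22357399, over an exon of the neighboring gene PIWIL2 and 9978 bp upstream of the SLC39A14 start. The gained peak of 399 bp lay from 22388601 to 22388999 in an intron of SLC39A14. It was 21522 bp downstream of the MANE Select start and 4030 bp from the closest annotated SLC39A14 start. Another intronic site, from 22382601 to 22384399, was covered over 1599 bp in either list and was shifted by 1 bin. The covered bases of the SLC39A14 window were 10393 bp in control and 7792 bp in cadmium-treated cells, a ratio of 0.75. Both cadmium carriers had a start-site peak in either condition, which was narrower in cadmium for SLC39A8 and 1 bin wider for SLC39A14.

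SLC39A10 encodes ZIP10, a zinc importer of the cell surface, from bases 195575977 to 195737702 of chromosome 2 (plus strand). The peak at its MANE Select start, at 195657226, was 2399 bp wide in control cells and 2999 bp wide in cadmium-treated cells, with 200 bp more upstream and 400 bp more downstream. The most upstream start of the gene had a peak of 599 bp in control and 399 bp in cadmium-treated cells. The gained peak of 399 bp lay from 195623001 to 195623399 in an intron, 33547 bp from the closest SLC39A10 start. An intronic control peak of 1599 bp from 195612801 to 195614399 was replaced by 2 narrow cadmium peaks of 399 and 199 bp inside it. The covered bases of the window were 5995 and 5393 bp, a ratio of 0.90, the second highest of the 10 importers.

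The gained peak of SLC39A10 held none of the motifs searched on both strands, which were the MRE core (TGCACNC or TGCGCNC), the AP-1 site bound by FOS/JUN dimers (TGACTCA or its reverse complement TGAGTCA) and the forkhead site (GTAAACA as well as GTAAATA, and with another first base ATAAACA as well as ATAAATA). An AP-1 site was present in the central 300 bp of 26.9% of all gained peaks, an MRE core in 19.6% and a forkhead site in 15.0%. The narrow fragment of 199 bp that remained of the intronic control peak held 1 AP-1 site, and 21.2% of all shared cadmium peaks held AP-1 in their central 300 bp. The central 300 bases of the gained peak (chr2:195623051-195623350, plus strand) and the whole fragment (chr2:195614001-195614199, plus strand, AP-1 site in capitals) are shown as intronic sites at which SLC39A10 differed between the lists. The other fragment, of 399 bp from 195612801 to 195613199, held none of these motifs and is not shown. The gained peak of SLC39A14 held 1 forkhead site, in its central 300 bp, and no AP-1 site or MRE core.
SLC39A10 gained intronic peak: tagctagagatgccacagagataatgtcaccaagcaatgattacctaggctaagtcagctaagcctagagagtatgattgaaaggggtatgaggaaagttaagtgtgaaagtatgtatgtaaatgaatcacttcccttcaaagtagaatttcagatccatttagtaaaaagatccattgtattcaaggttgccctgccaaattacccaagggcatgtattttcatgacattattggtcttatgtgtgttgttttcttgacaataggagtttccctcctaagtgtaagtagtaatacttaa
SLC39A10 intronic fragment: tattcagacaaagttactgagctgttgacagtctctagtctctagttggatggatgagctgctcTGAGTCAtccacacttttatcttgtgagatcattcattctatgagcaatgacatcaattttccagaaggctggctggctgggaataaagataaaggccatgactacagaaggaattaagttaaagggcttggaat

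SLC39A6 encodes ZIP6 or LIV-1, which pairs with ZIP10 and is known as an estrogen-regulated gene of breast cancer. It occupies bases 36108531 to 36129385 of chromosome 18 (minus strand) and shares its promoter region with ELP2 on the other strand. The window held 2 control peaks and 1 cadmium peak. The start-site peak covered 3599 bp in control and 2399 bp in cadmium-treated cells, and the narrower extent upstream, 1259 against 2259 bp, was on the ELP2 side. The lost peak was 1 bin of 199 bp from 36096001 to 36096199 in intergenic sequence, and it held no MRE core, AP-1 or forkhead site. Covered bases fell from 3798 to 2399 bp, a ratio of 0.63.

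SLC39A4 encodes ZIP4, the importer of dietary zinc that is mutated in acrodermatitis enteropathica, from bases 144409742 to 144416844 of chromosome 8 (minus strand). Its window was the most densely covered of the 10, over 56.6% of its length in control and 56.5% in cadmium-treated cells, and its covered bases differed least, at 26652 and 26595 bp. The arrangement changed nevertheless. In control cells 1 peak of 5999 bp ran over the start site from 1155 bp upstream to 4843 bp downstream. In cadmium-treated cells a peak of 2399 bp ran from 2355 bp upstream to 43 bp downstream and a separate peak of 8599 bp began 845 bp downstream. The lost peak of 3199 bp, from 144400401 to 144403599, lay over coding exons of the neighboring gene CPSF1, 14844 bp downstream of the SLC39A4 start. It held 8 MRE cores, 4 of them in its central 300 bp, with 1 AP-1 and 1 forkhead site. Its 2.5 MRE cores per kb compare with 0.625 to 1.94 in the shared control peaks of the window and 0.435 to 2.92 in the shared cadmium peaks. Of all lost peaks, 18.5% held an MRE core in the central 300 bp.

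SLC39A1 and SLC39A3 encode ZIP1 and ZIP3, zinc importers of the cell surface that many tissues express. SLC39A1 occupies bases 153959099 to 153968184 of chromosome 1 (minus strand), in a window with 7 other protein-coding genes. It had 6 control and 6 cadmium peaks, all shared. The peak at its MANE Select start was 2599 bp wide in control and 2799 bp wide in cadmium-treated cells, and the peak at its most upstream starts was 4599 and 3799 bp wide. Covered bases of the SLC39A1 window were 20194 and 15794 bp, a ratio of 0.78.

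SLC39A3 occupies bases 2732204 to 2740028 of chromosome 19 (minus strand) and had the lowest ratio of the 10 importers, 0.47, with 16192 bp covered in control and 7597 bp in cadmium-treated cells. Its start-site peak went the other way and was 2199 bp wide in control and 2599 bp in cadmium-treated cells, with 400 bp more upstream. The lost peak of 4999 bp, from 2726001 to 2730999, was the widest of the 5 lost peaks of the 10 importers and lay 11517 bp downstream of the SLC39A3 start over an exon of ENSG00000261342. It held 8 MRE cores, or 1.60 per kb, where the shared control peaks of the window held 1.59 to 2.27 per kb, and none was in its central 300 bp. Of the other control peaks, the most distal, from 2709801 to 2712999, overlapped a cadmium peak outside the window, and those from 2719801 to 2724199 and from 2746201 to 2749999 were 4399 and 3799 bp wide where the cadmium peaks were 3199 and 1799 bp wide.

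SLC39A7, SLC39A9 and SLC39A13 encode ZIP7, ZIP9 and ZIP13, which act at internal membranes. ZIP7 releases zinc from the endoplasmic reticulum and Golgi apparatus, ZIP9 is found at the Golgi apparatus and the cell surface, and mutations of ZIP13 cause a form of Ehlers-Danlos syndrome. SLC39A7 lies on chromosome 6 from 33200305 to 33204439, plus strand, between RXRB and HSD17B8. In control cells a single peak of 13599 bp ran from within RXRB across SLC39A7 and HSD17B8 into RING1. In cadmium-treated cells this domain was broken into 3 peaks of 999, 3399 and 6999 bp, of which the second held the SLC39A7 start, from 1666 bp upstream to 1732 bp downstream. A second control peak of 4599 bp, over the end of RING1 and the pseudogene ZNF70P1, was likewise broken into 2. No base of the SLC39A7 window was in a lost or gained peak, and covered bases were 18198 and 14195 bp, a ratio of 0.78.

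SLC39A9 occupies bases 69398015 to 69462390 of chromosome 14 (plus strand), and its first bases overlap the start of ERH on the other strand. Its start-site peak had identical edges in the lists, from 69397401 to 69399399. The other peaks of SLC39A9 were narrower in cadmium. A peak at the 3′ end of the gene measured 2199 bp in control and 599 bp in cadmium-treated cells, and a peak beyond the gene 999 and 399 bp. The latter, 10299 bp from the closest SLC39A9 start when measured from its cadmium centre, held 3 AP-1 sites, all inside the 399 bp kept in cadmium-treated cells. It was 1 of 3 shared cadmium peaks of the 43 in the windows with AP-1 in the central 300 bp. The central 300 bases are shown for these sites (chr14:69464851-69465150, plus strand, AP-1 sites in capitals).
SLC39A9 downstream peak: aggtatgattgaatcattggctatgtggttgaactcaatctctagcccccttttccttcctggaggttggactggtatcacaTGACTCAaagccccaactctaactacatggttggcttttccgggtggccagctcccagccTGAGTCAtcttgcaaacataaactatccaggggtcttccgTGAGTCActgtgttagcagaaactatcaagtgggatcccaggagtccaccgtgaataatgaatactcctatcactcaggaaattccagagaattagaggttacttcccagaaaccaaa

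SLC39A13 occupies bases 47407132 to 47416496 of chromosome 11 (plus strand). The peak at its MANE Select start was 2999 bp wide in control and 2799 bp in cadmium-treated cells, with the same downstream edge, and a second peak over the 3′ part of the gene was 3799 and 3999 bp wide. The lost peak of 1599 bp ran from 47400001 to 47401599, with its centre at -7790 bp from the MANE Select start and 6332 bp from the closest annotated one, within SLC39A13-AS1 and over MIR4487. It held 1 MRE core and 3 forkhead sites. The central 300 bases, with the MRE core GAGTGCA and the forkhead site TATTTAC in capitals, both read on the opposite strand, are shown as the lost peak closest to an importer start (chr11:47400651-47400950, plus strand). In all lost peaks, 18.5% had an MRE core and 28.4% a forkhead site in the central 300 bp.
SLC39A13 lost upstream peak: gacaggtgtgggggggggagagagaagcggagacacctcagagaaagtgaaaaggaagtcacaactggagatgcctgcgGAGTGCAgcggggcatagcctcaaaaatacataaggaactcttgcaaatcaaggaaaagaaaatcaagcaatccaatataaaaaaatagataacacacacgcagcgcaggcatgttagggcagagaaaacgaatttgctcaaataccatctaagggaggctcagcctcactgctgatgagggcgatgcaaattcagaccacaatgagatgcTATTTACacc

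**Figure D2:**
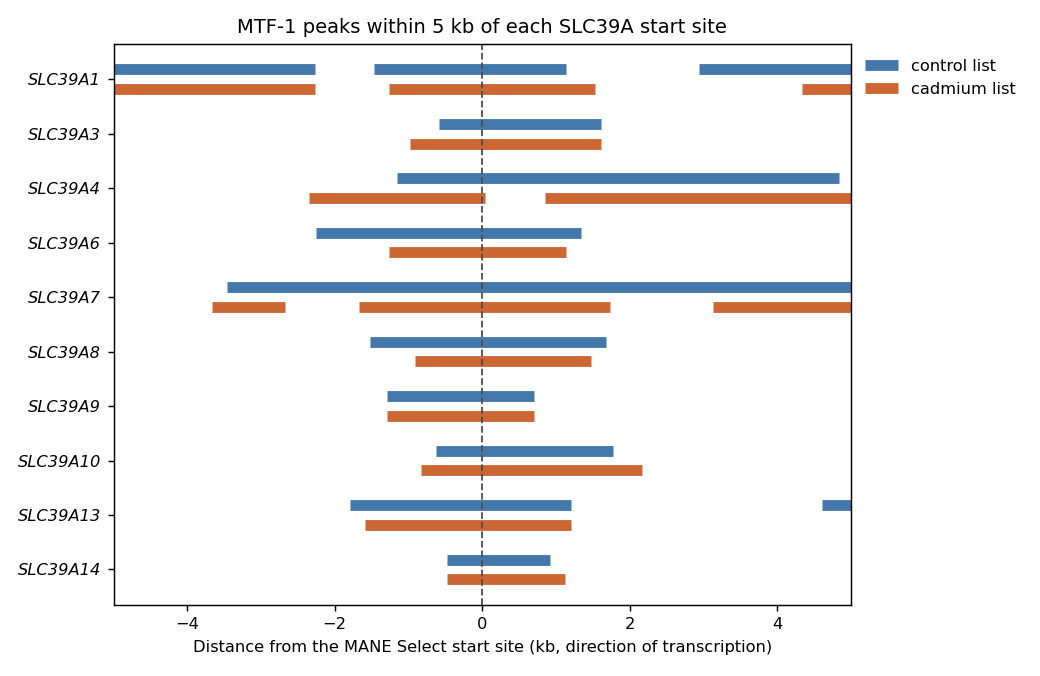
Peaks of the control list (blue) and the cadmium list (orange) within 5 kb of the MANE Select start site of each importer, with distance in kb along the direction of transcription. The start-site peaks of SLC39A9 coincide, the control domain of SLC39A7 is broken around the start in cadmium, and for SLC39A4 the cadmium list has a gap just downstream of the start.

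Measured within 3 kb of the MANE Select start, the bases covered were higher in cadmium for SLC39A1, SLC39A3, SLC39A4, SLC39A10 and SLC39A14, lower for SLC39A6, SLC39A7, SLC39A8 and SLC39A13, and equal for SLC39A9. The 5 higher values were 3399 and 3536 bp for SLC39A1, 2199 and 2599 bp for SLC39A3, 4156 and 4555 bp for SLC39A4, 2399 and 2999 bp for SLC39A10, and 1399 and 1599 bp for SLC39A14, control first. The largest drop was that of SLC39A7, from 6001 to 3732 bp. Its control value is the whole span measured, because the control peak of 13599 bp runs past both ends. Among the 13382 protein-coding genes with a start-site peak and coverage in both lists, 25.4% were higher and 60.9% lower in cadmium. The median ratio was 1.02 over the importers and 0.88 over all genes with a start-site peak in both lists.

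Merging overlapping peaks of the lists gave 45 sites in the windows, of which 38 were shared. Of the shared sites, 27 had more covered bases in control, 7 in cadmium and 4 the same number. Among all 48627 shared sites, 58.0% were longer in control and 23.7% in cadmium. The shared sites were divided into 14 at a start of an importer and 24 others, and the difference between these was not tested. At the importer starts 7 were longer in control, 6 in cadmium and 1 was equal, and the covered bases summed to 53585 bp in control and 50983 bp in cadmium-treated cells, a ratio of 0.951 that was 0.901 without SLC39A4 and 0.990 without SLC39A7. Of the 24 other sites, 20 were longer in control, 1 in cadmium and 3 were equal, with 67175 and 46972 bp and a ratio of 0.699. Many of the others are starts of neighboring genes, such as JTB, VPS28 and PSMC3, and a site in a window need not act on the importer. For 28 of the 45 sites the closest start site belonged to another gene of any kind, lncRNA genes and pseudogenes included. Some of these sites were also at an importer start, such as the one shared by SLC39A6 and ELP2.

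Counting the starts of all protein-coding genes, 24 shared sites of the windows were within 1 kb of one, and 15 of them were longer in control and 7 in cadmium, against 61.9% and 24.9% of such sites genome-wide. Of the 14 sites farther from every coding start, 12 were longer in control, none in cadmium and 2 were equal, against 56.1% and 23.1% genome-wide. The covered bases at these 14 sites summed to 25786 bp in control and 12784 bp in cadmium-treated cells, a ratio of 0.496, where all such sites of the genome gave 0.758. At the 24 sites near coding starts the ratio was 0.897, where all such sites of the genome gave 0.819. Of all 20 window sites farther than 1 kb from every coding start 4 were lost and 2 gained, against 29.8% and 14.0% genome-wide. Of the 25 sites at coding starts 1 was lost, that over CPSF1, and 0 were gained, against 10.1% and 4.59%.

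**Figure D3:**
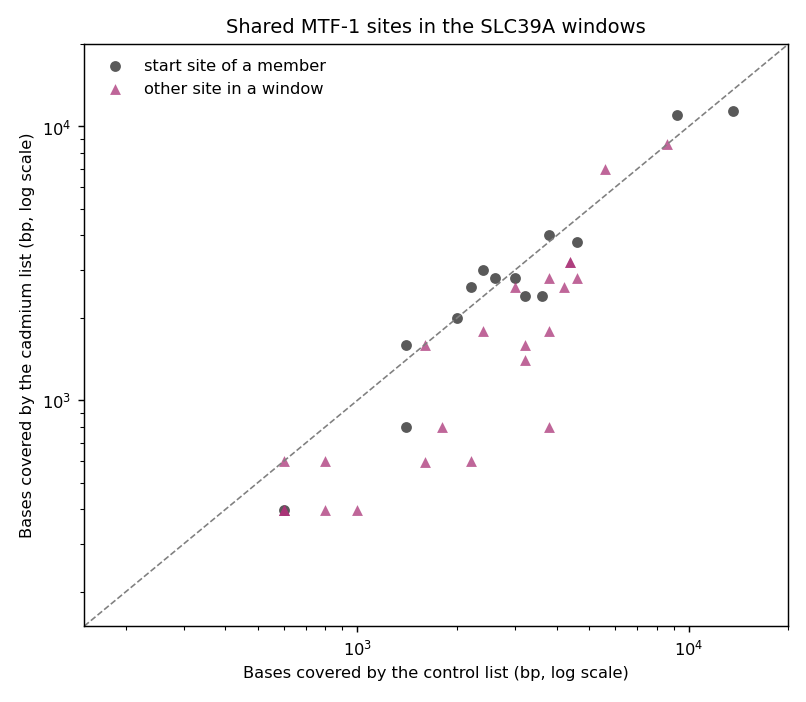
Bases covered at each of the 38 shared sites by the control list (horizontal) and the cadmium list (vertical), both in bp on log axes. Points below the dashed line of equal coverage were longer in control. Circles, the 14 sites at importer starts, lie on either side of the line, and triangles, the 24 other sites, lie mostly below it.

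Cadmium peaks were then compared with the control peaks they overlapped. Of the 43 shared cadmium peaks, 29 (67.4%) were wholly inside control peaks, against 65.7% in the whole cadmium list, and of the 40 shared control peaks 7 (17.5%) were wholly inside cadmium peaks, against 34.8%. In 4 of the 38 shared sites the cadmium list had more peaks than the control list, 2 of them at SLC39A7 and the others in the windows of SLC39A10 and SLC39A14. The opposite was seen in none of the 38, and genome-wide in 2.00% of shared sites, with the former in 3.97%.

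Covered bases in the whole window were lower in cadmium for all 10 importers, which was the case in 74.8% of protein-coding windows with control coverage. Over the windows together 124811 bp were covered in control and 96555 bp in cadmium-treated cells, a ratio of 0.774, and the whole lists gave 0.697. The median ratio of the importers was 0.765 and that of all protein-coding windows 0.750, with quartiles of 0.555 and 1. The ratios ran in order from 0.47 for SLC39A3 through 0.58 for SLC39A9, 0.63 for SLC39A6, 0.70 for SLC39A8, 0.75 for SLC39A14, 0.78 for SLC39A7 and SLC39A1, 0.79 for SLC39A13 and 0.90 for SLC39A10 to 1.00 for SLC39A4. With 1 list per condition no spread can be given for these ratios, and neighbors in the order cannot be told apart. The windows were denser in peaks than most. Their median share covered was 17.2% in control and 11.6% in cadmium-treated cells, against 7.04% and 5.15% over all protein-coding windows. Peaks were also wider, with a median of 2599 bp in control and 1799 bp in cadmium-treated cells, against 1399 and 999 bp in the whole lists.

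**Figure D4:**
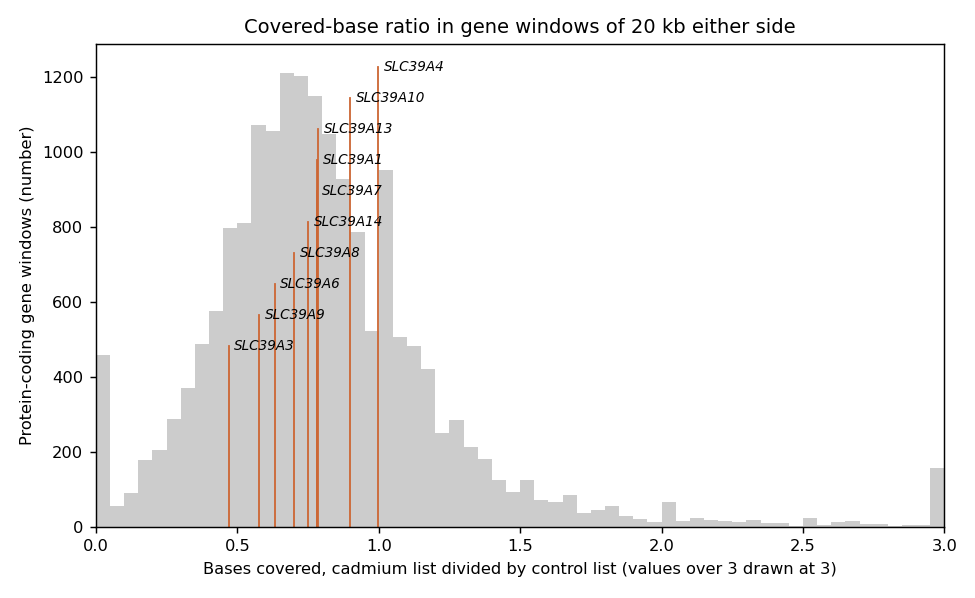
Distribution over all protein-coding gene windows with control coverage of the ratio of covered bases, cadmium list over control list, with the number of windows on the vertical axis and each importer marked by a line whose height has no meaning. The 10 importers lie between 0.47 and 1.00, around the median of 0.750.

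Promoter sequences of 8 importers were found in the RefSeq promoter table on GRCh38.p14, with 14 windows of 300 bp. SLC39A4 and SLC39A14 had no entry, so their promoter windows were not searched. Their control peaks at the MANE Select start held 10 and 2 MRE cores. An MRE core was in 6 of the 14 windows (42.9%), 1 each for SLC39A1, SLC39A3, SLC39A6, SLC39A8, SLC39A10 and SLC39A13, against 29.6% of all 35116 promoter windows. No AP-1 and no forkhead site was in any of the 14, against 4.95% and 13.6% of all. Each MRE core read in the direction of transcription. Counted from the RefSeq start site, its first base was at -236 for SLC39A1, -128 for SLC39A3, -17 for SLC39A6, -119 for SLC39A8, 34 for SLC39A10 and -175 for SLC39A13, and all of these positions were inside start-site peaks of both lists. In SLC39A10 the core was followed by G and so completed the longer string TGCACACG, which was in 0.678% of all promoter windows. This string was looked up after the sequence was seen. It is the MTF-1 motif of the JASPAR motif database. The paper doubts that it is a genuine MTF-1 motif and saw no enrichment of it in its data. A match to these letters is a description and not a site of binding.

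The cores are shown in capitals within promoter sequence that carries no annotated UTR, or within 30 bases for SLC39A6 and SLC39A10, each 5′ to 3′ in the direction of the gene. They lie at chr1:153963704-153963787, chr19:2740077-2740326, chr18:36129339-36129368 and chr4:102345532-102345685 on the minus strand and at chr2:195657246-195657275 and chr11:47408340-47408583 on the plus strand. They are printed because they are the MRE cores of the promoter windows, and each lay within a start-site peak kept in cadmium. They are not all the cores of these peaks. The start-site peak of SLC39A9, for example, held 3 cores in cadmium-treated cells, outside its promoter windows.
SLC39A1: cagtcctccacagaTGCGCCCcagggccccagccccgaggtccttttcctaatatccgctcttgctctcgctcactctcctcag
SLC39A3: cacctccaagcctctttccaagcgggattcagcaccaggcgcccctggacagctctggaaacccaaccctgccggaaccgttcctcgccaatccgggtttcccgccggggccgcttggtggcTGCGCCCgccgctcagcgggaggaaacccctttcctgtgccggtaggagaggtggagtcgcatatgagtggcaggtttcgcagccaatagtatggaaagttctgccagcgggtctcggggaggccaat
SLC39A6: ccccgcggcgcTGCGCGCggcggtaattag
SLC39A8: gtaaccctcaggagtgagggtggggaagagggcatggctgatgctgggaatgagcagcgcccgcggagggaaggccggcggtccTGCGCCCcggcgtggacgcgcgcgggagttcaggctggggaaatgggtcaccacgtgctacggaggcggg
SLC39A10: agcggagaggagaTGCACACggcactcgag
SLC39A13: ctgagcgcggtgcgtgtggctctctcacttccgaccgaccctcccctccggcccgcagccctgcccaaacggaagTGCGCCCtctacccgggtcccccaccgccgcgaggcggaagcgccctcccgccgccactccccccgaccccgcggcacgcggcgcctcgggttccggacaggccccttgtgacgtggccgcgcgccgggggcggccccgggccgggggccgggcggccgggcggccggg

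Across the peaks themselves, the central 300 bp held an MRE core in 13 of 40 shared control peaks (32.5%) and 11 of 43 shared cadmium peaks (25.6%), against 24.1% and 24.0% of all shared peaks. AP-1 sites were in 1 of the 40 (2.50%) and 3 of the 43 (6.98%), against 17.9% and 21.2%, and forkhead sites in 6 (15.0%) and 4 (9.30%), against 16.7% and 16.0%. These peaks are wider than average, which the central window does not take into account. They also lie more often at coding starts, with 24 of 38 shared sites within 1 kb of one against 15650 of 48627 genome-wide. Of all promoter windows, 4.95% held an AP-1 site. The shares were not compared among peaks at coding starts alone.

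The remaining zinc transporters were examined in the same way. Of the other 4 SLC39A genes, SLC39A11 had a start-site peak in both lists, and SLC39A2, SLC39A5 and SLC39A12 had none in either. The window of SLC39A11, at 486764 bp the longest of the family, held 14 control and 14 cadmium peaks, with 3 lost and 2 gained, and the others had shared peaks only. Of the 10 zinc exporters SLC30A1 to SLC30A10, 8 had a start-site peak in both lists and 2, SLC30A2 and SLC30A8, in neither. Of all protein-coding genes, 70.0% had one in both. In the exporter windows 18 of 37 control peaks (48.6%) were lost, against 27.9% of the whole control list and 5 of 45 at the importers. SLC30A10 held 9 of the 18, and without it 9 of 23 (39.1%) were lost. Of the cadmium peaks in the exporter windows 4 of 22 (18.2%) were gained, against 15.1% of the whole cadmium list and 2 of 45 at the importers. The exporter windows were longer, 1263 kb in all against 932 kb, and the differences were not tested. Exporter peaks were counted only under the rule of 1 shared base. Their closeness to coding starts, where fewer sites are lost genome-wide, was not examined. SLC30A1, the exporter best known as a target of MTF-1, had 6 control and 4 cadmium peaks, with 2 lost, and covered bases of 8994 and 6596 bp. Covered bases were lower in cadmium for 6 of the 10 exporters and higher for the other 4, with ratios of 2.69 for SLC30A2, 2.00 for SLC30A3, 1.11 for SLC30A7 and 1.08 for SLC30A9, where no importer exceeded 1.00.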

How the data were processed

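MTF-1 CUT&RUN was carried out by the authors in control and cadmium-resistant MDA-MB-231 cells, with 2 replicates each. Per the paper's methods, adaptors were trimmed with bbduk, reads were aligned to hg38 with Bowtie2, replicates were merged with SAMtools 1.8 and peaks were called on the merged reads with Epic2 0.0.50 at default parameters (the labels list this version under SICER). No control library is named. The deposited lists give a start and an end per peak in base pairs and a constant last column, which was not used. Merging leaves no measure of reproducibility, and the unknown depth of each list affects peak number and width.

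Peaks were compared by shared bases (at least 1) and placed on GENCODE 44 with pandas 2.3.3, and sequences were read from hg38 with pysam 0.24.0. Start sites were those of all annotated transcripts of a gene, unless the MANE Select transcript is named. Distances given as upstream or downstream of an importer start were measured from the MANE Select start. All 10 importers are named, with the other SLC39A genes, the SLC30A genes and the genes closest to a named peak. The members and lists were chosen with earlier results of these data known. No test was made. Class assignment and covered bases were checked on simulated data. Alternatives were the overlap, gap and width that define a shared peak, the window and the start-site rule.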

Additional observations from a re-analysis of the deposited data

How the results depend on the processing

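The 10 start-site peaks shared by the lists remained 10 of 10 under every start-site distance, transcript set and width minimum tried. The lost and gained counts moved most. When a peak counted as shared only if 50% of it was covered, 14 peaks were lost (31.1%, whole list 46.2%) and 4 gained (8.89%, whole list 21.5%). With peaks of at least 400 bp in both lists, 10 of 43 were lost (23.3%, whole list 33.3%) and 0 gained (whole list 14.7%), and with peaks of at least 1000 bp, 8 of 35 (22.9%, whole list 42.3%) and 0 (whole list 17.1%), since removing narrow cadmium peaks leaves control peaks without a partner and both gained peaks are 399 bp wide. Within gene bodies only, 0 were lost and 22 control peaks were shared, with a covered-base ratio of 0.857. With 5 kb on either side, 1 was lost and 23 were shared, and with 50 kb, 11 were lost and 65 shared. Accepting peaks within 600 bp as shared changed no count. The ratio of covered bases, recomputed for both width minima and the 3 other window sizes, was below 1 in each. No paired analysis was possible because the replicates were merged before peak calling, and for the same reason no replicate could be left out.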
